A study of Mus musculus with 8 samples.

Results

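Articular cartilage from wild-type (WT) mice was sequenced after destabilization of the medial meniscus (DMM) or a sham operation, and 4 of the 8 libraries of the series belong to this comparison. At 2 weeks after surgery there is 1 sham-operated and 1 DMM library (WT Sham, WT DMM), and the same pair exists at 4 weeks. The animals were C57BL/6 males, labelled as 10 weeks old, an age at which the label protocol starts DMM surgery. WT animals carried no engineered allele, and the other 4 libraries repeat the design in Oscar-/- mice, which lack the osteoclast-associated receptor. The study asked which genes respond to DMM and which of those responses need Oscar. Each library pooled 10 articular cartilages, so that every condition was a single library. The 2 weeks stood in for replicates, and an effect of surgery was called mostly against the spread pooled over all genes. The spread of 1 gene between weeks had 1 residual degree of freedom, so a call does not show that the weeks agree.

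DMM loosens the medial meniscus of the knee and so overloads the cartilage beneath it, and it is the standard surgical model of osteoarthritis in the mouse. Articular cartilage is built by chondrocytes, which hold type II collagen and aggrecan in a matrix without blood vessels. In osteoarthritis this matrix is cut by matrix metalloproteinases and aggrecanases, while fibrous tissue, new bone and new vessels can form at the joint margin and below the cartilage. OSCAR is a receptor for collagen, known first from osteoclasts.

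The 4 WT libraries held 18533609 and 18059010 expected counts at 2 weeks (Sham and DMM) and 14448052 and 13262146 at 4 weeks. The study's RNA methods name knee joint tissues as the source, with 10 articular cartilages combined per group. The tissue label was checked against marker genes. Hemoglobin genes took 29.6% to 37.7% of all TPM, the length-scaled transcript measure whose total is the same in every library, and neutrophil genes 9.18% to 11.2%, whereas 22 cartilage genes, none of them at 0 in any of the 4 libraries, took 0.200% to 0.357%. Blood and marrow cell RNA was thus far more abundant than that of these cartilage genes, and in bulk RNA fewer cells of a type and less RNA per cell cannot be told apart. The 2-week sham library stood apart. It had the highest hemoglobin share (37.7%), the highest summed level of 18 skeletal muscle genes (311.3 TPM, against 74.7 to 167.8 in the others) and the fewest protein-coding genes above 1 TPM (11322, against 11861 to 12166). The 2-week DMM library had the highest share of mitochondrial transcripts (7.75% of TPM, against 3.94% to 4.75%), and the part of this in the 2-week ratios was not tested. Among 8573 genes with a mean of 200 counts or more, the 2 sham libraries differed from each other with an SD of 0.35 on the log2 scale, more than Sham from DMM at 2 weeks (0.32) or at 4 weeks (0.24).

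Genes of the fibrous matrix, of basement membranes, of matrix-cleaving proteases and of vessels were among those that rose after DMM. Of 12538 protein-coding genes tested, 792 rose (6.32%) and 174 fell (1.39%) at an edgeR adjusted p under 0.05. All 792 genes that rose had a DMM to sham ratio above 1 at both weeks, and 159 of the 174 that fell had one below 1 at both weeks. Of all genes tested, 31.4% were above their sham at both weeks and 33% below. Both DMM libraries lay above both sham libraries for 747 of the 792, while this held for 20.1% of all genes tested. Both lay below for 136 of the 174, against 17.7% of all genes. The calls came from these same 4 libraries, so this order follows in part from the selection and is no separate support. The median change was 0.68 on the log2 scale among the genes that rose and -0.48 among those that fell, and 163 and 37 of them changed by 1 or more. The genes that rose made up 0.893% and 0.966% of TPM in the sham libraries and 1.71% and 1.74% in the DMM libraries. On TPM the log2 ratio of DMM to sham had a median over all genes of 0.34 at 2 weeks and 0.05 at 4 weeks. On the scaled counts used for the calls these medians were -0.004 and -0.005. Rises in TPM at 2 weeks, here and below, include this shift.

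These calls rest on few samples. Of the 12538 genes tested, DESeq2 called 144 up and 5 down. Some of the 144 are on several lists. They held 11 of 14 fibrillar and fibril-associated collagens, 12 of 37 proteoglycans and matricellular genes and 8 of 14 basement membrane genes. There were also 7 of 24 proteases, 6 of 23 collagen-processing genes, 5 of 22 endothelial genes and 4 of 16 fibroblast genes. The protease inhibitor list gave 4 of 11, the TGF-beta list 4 of 29 and the cartilage list 3 of 20. The osteoblast (19 tested), osteoclast (15), hypertrophy (12), pericyte (12) and adipocyte (12) lists gave 2 each. The fit had 1 residual degree of freedom, so its p-values lean on the spread pooled over all genes. Without the term for week, edgeR called 0 genes, with 997 at an unadjusted p under 0.05 against 2572 with the term. A fit of all 8 libraries gave 547 genes up and 63 down for WT. When such fits left out 1 WT library in turn, 302 genes rose and 6 fell without the 2-week sham, 144 and 3 without the 2-week DMM, 925 and 803 without the 4-week sham, and 121 and 11 without the 4-week DMM. A core of 80 genes rose in the 4-library fit and in each of those, and no gene fell in all of them, with edgeR in each fit.

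The response also moved with gene length. Across genes, Spearman's rho between length and the log2 ratio was 0.55 at 2 weeks and 0.17 at 4 weeks, given as a description since genes of a library are not independent. Of 5 equal groups by length, the shortest genes, up to 1369 bases, had a median log2 ratio of -0.26 at 2 weeks and -0.05 at 4 weeks, and the longest, from 3975 bases, 0.26 and 0.06. Called genes followed the same order, with 55 up and 101 down in the shortest group and 365 up and 12 down in the longest. When a smooth length trend was taken out of each library, 499 genes rose, 460 of them among the 792, and 85 fell, only 41 of them among the 174. All 80 genes of the core rose there too. The cause of the length trend was not tested.

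**Figure D1:**
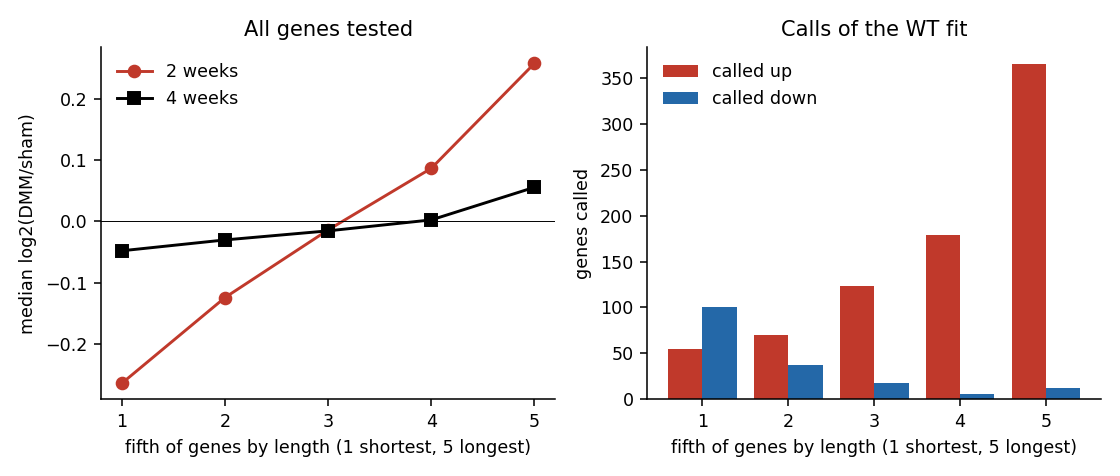
Left, median log2(DMM/sham) of scaled counts for 5 equal groups of genes ordered by length, at 2 weeks (circles) and 4 weeks (squares); right, the number of genes called up and down in each group. At 2 weeks the median climbs from -0.26 to 0.26 with length, and at 4 weeks from -0.05 to 0.06.

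At a threshold of 2-fold at both weeks, 94 genes rose (0.771% of the 12186 with enough counts), 93 of them also called by edgeR, and 6 fell (0.0492%), all called. None passed the threshold in opposite directions. Of the 94, 76 stayed past it with the length trend removed. The log2 ratios of the 2 weeks had a Pearson correlation across genes of 0.46, or 0.52 among the 8573 genes with more counts, again as a description.

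**Figure D2:**
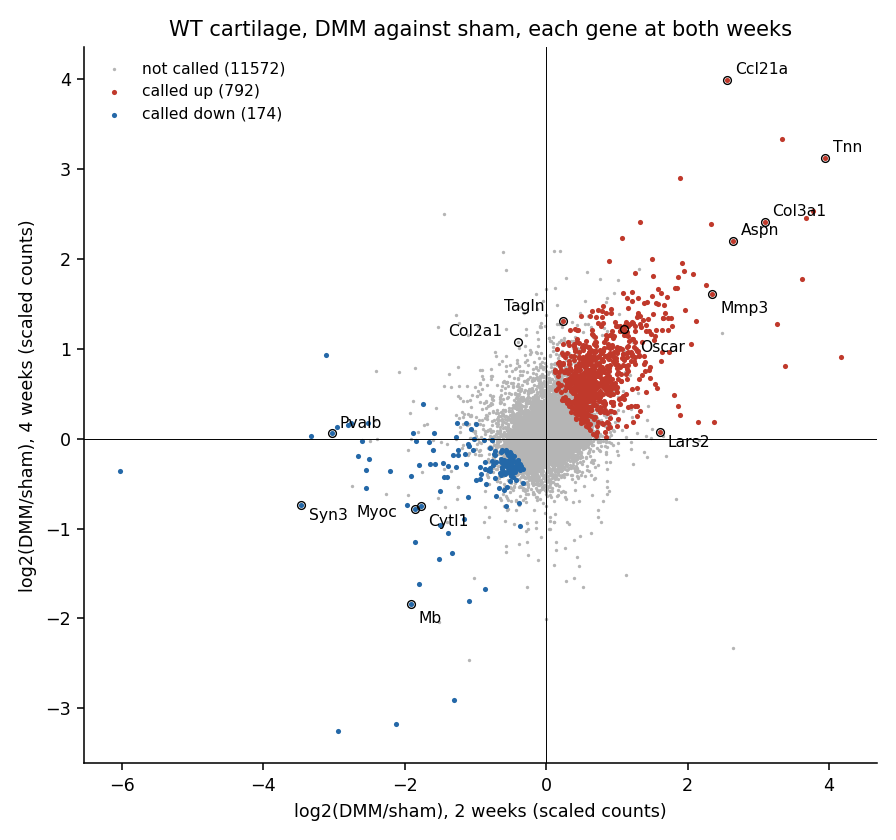
Each point is a gene, with log2(DMM/sham) of scaled counts at 2 weeks on the x axis and at 4 weeks on the y axis; red and blue mark the 792 genes called up and the 174 called down, grey the rest, and circles the labelled genes. The genes that rose lie in the upper right quadrant, while many that fell lie near 0 at 4 weeks.

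The promoters of the 3 genes with the largest rise among those with a mean of 50 counts or more are shown because these genes rose together at both weeks, from 250 bases before to 50 after the start, in RefSeq on GRCm38.p6, 5′ to 3′ on the gene's strand. Capitals mark a match to the AP-1 motif (TGACTCA, or TGAGTCA on the other strand) or to the TATA motif (TATAAA, or TTTATA), which do not overlap each other here.
Tnn, chr1:160153526-160153825, minus strand: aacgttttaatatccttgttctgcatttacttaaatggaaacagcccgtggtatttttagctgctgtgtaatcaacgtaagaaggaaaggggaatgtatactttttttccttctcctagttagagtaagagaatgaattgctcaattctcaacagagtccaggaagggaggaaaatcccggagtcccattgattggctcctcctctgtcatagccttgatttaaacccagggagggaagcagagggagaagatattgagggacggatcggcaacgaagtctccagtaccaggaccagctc
Ccl21a, chr4:42773942-42774241, minus strand: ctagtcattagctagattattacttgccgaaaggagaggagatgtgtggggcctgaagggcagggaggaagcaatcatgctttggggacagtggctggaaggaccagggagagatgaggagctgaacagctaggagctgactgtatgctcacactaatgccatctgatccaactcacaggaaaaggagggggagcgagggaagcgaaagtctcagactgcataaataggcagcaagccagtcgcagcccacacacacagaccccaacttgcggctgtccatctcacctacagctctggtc
Col3a1, chr1:45311288-45311587, plus strand: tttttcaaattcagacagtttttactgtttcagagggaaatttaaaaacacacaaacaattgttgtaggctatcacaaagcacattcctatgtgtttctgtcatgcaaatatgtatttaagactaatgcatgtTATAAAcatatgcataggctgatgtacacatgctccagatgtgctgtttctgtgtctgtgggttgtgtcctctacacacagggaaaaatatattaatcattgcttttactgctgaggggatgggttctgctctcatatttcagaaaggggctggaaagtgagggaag
The TATA letters stood once, 117 bases before the start of Col3a1, and the AP-1 letters were in none of these 3 windows. Of 32851 promoters in the table, 5.20% held the AP-1 motif and 13.6% the TATA motif. Among the promoters of tested genes these shares were 3.92% and 7.35%, among those of the genes that rose 6.74% and 10.2%, and among those of the genes that fell 5.66% and 8.18%.

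Tnn encodes tenascin-N, a matrix glycoprotein of the periosteum and of forming bone (GRCm38, chromosome 1, 160085029 to 160153580). Its level was 0.18 TPM in the 2-week sham library and 3.75 TPM after DMM, and 0.31 and 3.02 TPM at 4 weeks. Both DMM libraries were thus far above both shams, on 427 and 226 counts against 23 and 26. The rise was 12.5-fold (log2 3.65 ± 0.21 SE, edgeR adjusted p = 9.88e-19). The call was lost without the 2-week sham or the 4-week DMM library, with log2 changes of 2.91 to 4.29 over the fits without 1 library.

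Ccl21a, a chemokine that draws lymphocytes and dendritic cells along lymphatic vessels (chromosome 4, 42772860 to 42773993), went from 1.84 to 14.9 TPM at 2 weeks and from 0.69 to 13.7 TPM at 4 weeks. The groups did not overlap, and the change was 3.18 ± 0.26 on the log2 scale (adjusted p = 1.48e-13). This gene has near-identical copies, so the division of reads among them is uncertain.

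Fibrillar and fibril-associated collagens build the tensile fibers of skin, tendon, ligament and scar, and type III collagen is made early in wound repair. The list counted under this name also holds Col6a1 and Col6a3, chains of beaded filaments rather than of such fibers. Of 14 tested, 13 rose and none fell (edgeR), with a median log2 change of 1.19 against -0.01 over all genes tested. With the length trend removed 12 rose with a median of 1.05, and leaving out any 1 WT library left between 9 and 12. Col3a1 (chromosome 1, 45311538 to 45349706) had 19.6 TPM in the 2-week sham and 188 TPM after DMM, and 19.8 and 127 TPM at 4 weeks. The sham libraries were nearly alike and the DMM libraries stood 8.52-fold and 5.33-fold above them on scaled counts (2.76 ± 0.15, adjusted p = 8.75e-20). Col6a3, a chain of the beaded filaments around cells, rose from 11.1 to 33.4 and from 6.83 to 24.0 TPM. Col12a1, which sits on the surface of collagen fibrils, rose from 4.74 to 20.2 and from 4.11 to 13.1 TPM, although its call was lost without either DMM library.

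**Figure D3:**
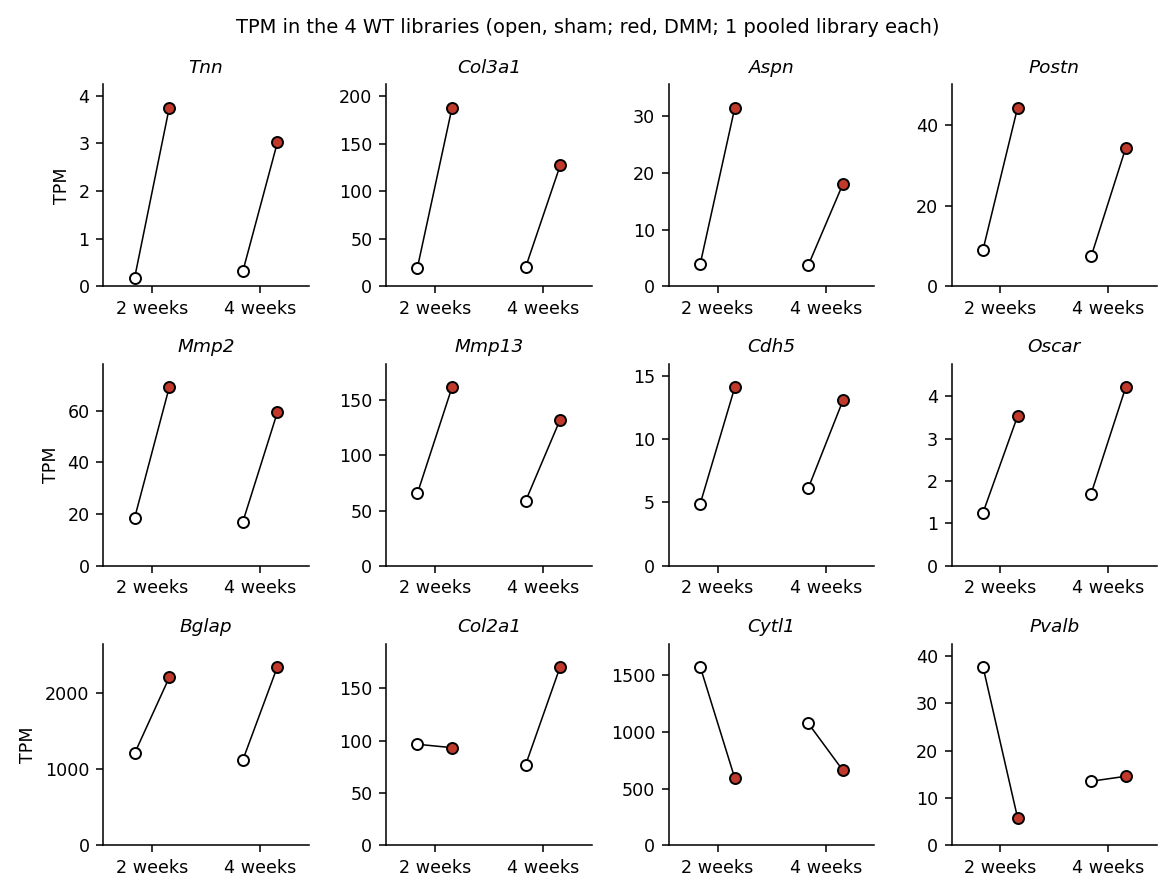
TPM of 12 genes in each WT library, open circles for Sham and red circles for DMM, joined within each week; each y axis starts at 0 and there is 1 pooled library per point. In the first 9 panels both DMM points lie above both sham points, Cytl1 shows the reverse, and Col2a1 and Pvalb change at a single week.

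Enzymes and chaperones that fold, trim and cross-link collagen moved the same way, with 12 of 23 up and 1 down and a median of 0.56. Leaving out 1 library left 3 to 11 up, the fewest without the 4-week DMM. Serpinh1, the collagen chaperone HSP47, rose from 54.0 to 131 and from 60.5 to 127 TPM (0.97 ± 0.12, adjusted p = 1.25e-08). Pcolce, which speeds removal of the collagen propeptide, rose from 33.7 to 79.3 and from 33.3 to 78.3 TPM. Loxl2, a cross-linking oxidase, rose from 3.04 to 6.84 and from 2.65 to 5.55 TPM. Serpinh1 and Loxl2 were not called without the 4-week DMM.

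Small leucine-rich proteoglycans and matricellular proteins, which coat collagen fibrils and tune the response of cells to matrix, gave 21 up and 1 down of 37 (median 0.59), or 17 up with the length trend removed and 5 to 18 without 1 library, the fewest without the 4-week DMM. Aspn, the proteoglycan asporin, was at 3.91 and 3.73 TPM in the shams and at 31.5 and 18.1 TPM after DMM (2.46 ± 0.14, adjusted p = 8.75e-20). Postn, the matricellular protein periostin, was at 9.06 and 7.40 TPM in the shams and at 44.4 and 34.4 TPM after DMM (1.92 ± 0.12). Lum, the fibril proteoglycan lumican, rose from 41.7 to 153 and from 33.3 to 121.5 TPM. For all 3 genes the groups were separate, and each rose without any 1 WT library. Cthrc1, a secreted protein of repairing matrix, rose 3.48-fold.

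Basement membrane genes, whose products form the sheets under endothelium and around other cells, rose for 12 of 14, none fell, and all 14 were above their sham at both weeks. Their median was 1.09, or 1.04 with the length trend removed, where 10 rose, and 8 to 11 rose without 1 library. Col4a1 went from 6.14 to 24.0 and from 9.44 to 19.7 TPM (1.56 ± 0.11, adjusted p = 2.63e-15). Hspg2, the heparan sulfate proteoglycan perlecan, went from 8.56 to 20.5 and from 7.78 to 20.7 TPM and was not called without the 4-week DMM library. Col18a1, the precursor of endostatin, rose 4.06-fold.

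Proteases that cut matrix rose for 13 of 24 with none falling (median 0.57). Without the 2-week DMM library 4 rose and without the 4-week DMM 6, and 11 rose with the length trend removed. Mmp2, gelatinase A, rose from 18.5 to 69.1 and from 16.9 to 59.4 TPM, or 3.09-fold and 3.07-fold on scaled counts. Mmp3, stromelysin-1, rose from 0.82 to 5.67 and from 0.82 to 2.78 TPM (2.14 ± 0.26, adjusted p = 1.14e-08). Mmp13, the collagenase that cuts type II collagen, rose from 65.7 to 162 and from 58.6 to 133 TPM (1.03 ± 0.13, adjusted p = 1.70e-08). The groups did not overlap for these 3 enzymes, and Mmp3 alone lost its call when a library, the 2-week DMM, was left out. Mmp14, a membrane protease that activates the Mmp2 proenzyme, rose 2.05-fold. The aggrecanase Adamts5 had 1.58 TPM in the 2-week sham and 2.18 TPM after DMM, then 2.23 and 2.15 TPM, and its log2 change of 0.00 ± 0.15 (adjusted p = 0.996) changed sign with the scaling. Among the 11 protease inhibitors, 4 rose, including Timp1, a tissue inhibitor of metalloproteinases (20.5 to 49.1 and 18.4 to 37.2 TPM).

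Cartilage genes proper did not share one direction. Of 20 tested 3 rose and 2 fell, while DESeq2 called 3 up and 0 down. The medians were -0.48 at 2 weeks and 0.26 at 4 weeks on scaled counts. Over both weeks the median was -0.12, or 0.06 in limma on log2(TPM + 1). Only 3 were above and 3 below their sham at both weeks. Without the 4-week DMM library none of them rose with edgeR, and 1 fell. Cytl1, a secreted cytokine-like protein of chondrocytes (chromosome 5, 37735519 to 37739820), had the highest mean TPM of the list. It stood at 1575 and 1075 TPM in the shams and at 591 and 660 TPM after DMM, so that both DMM libraries were lower (-1.26 ± 0.17, adjusted p = 1.96e-07). Its ratio was 0.292 at 2 weeks and 0.594 at 4 weeks, and the call held only when the 4-week sham was the library left out. Fmod, the proteoglycan fibromodulin, rose from 18.2 to 44.3 and from 17.7 to 49.3 TPM, and Col11a1 and Col11a2, chains of the type XI collagen that sets fibril width in cartilage, rose 1.85-fold and 1.5-fold. These 3 were not called without the 4-week DMM.

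Col2a1, the main collagen of cartilage, had 96.4 TPM in the 2-week sham and 93.2 after DMM, and 76.6 and 170 TPM at 4 weeks. A single library, DMM at 4 weeks, was high, and the change over both weeks was 0.34 ± 0.18 (adjusted p = 0.270). It was called up by limma on log2(TPM + 1) (0.55, adjusted p = 0.0132) and without the 2-week DMM library (1.21, edgeR adjusted p = 0.0209), and was -0.56 without the 4-week DMM. On scaled counts its log2 ratio was -0.39 at 2 weeks and 1.08 at 4 weeks, since the 2-week TPM ratios of all genes had a median of 0.34 on the log2 scale while scaled counts centred at 0.00. At 4 weeks the TPM median was 0.05. Acan, the core protein of aggrecan, went from 42.0 to 28.4 and from 25.8 to 31.6 TPM (-0.26 ± 0.14, adjusted p = 0.283). Hypertrophy genes, which mark chondrocytes about to mineralize their matrix, gave 5 up of 12, among them Panx3, a channel protein (1.49 to 4.88 and 1.82 to 5.69 TPM), and Alpl, alkaline phosphatase (42.1 to 63.2 and 41.6 to 76.0 TPM). The count fell to 1 without the 4-week DMM library. Panx3 was called only when the 4-week sham was left out, and Alpl not without either 4-week library.

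**Figure D4:**
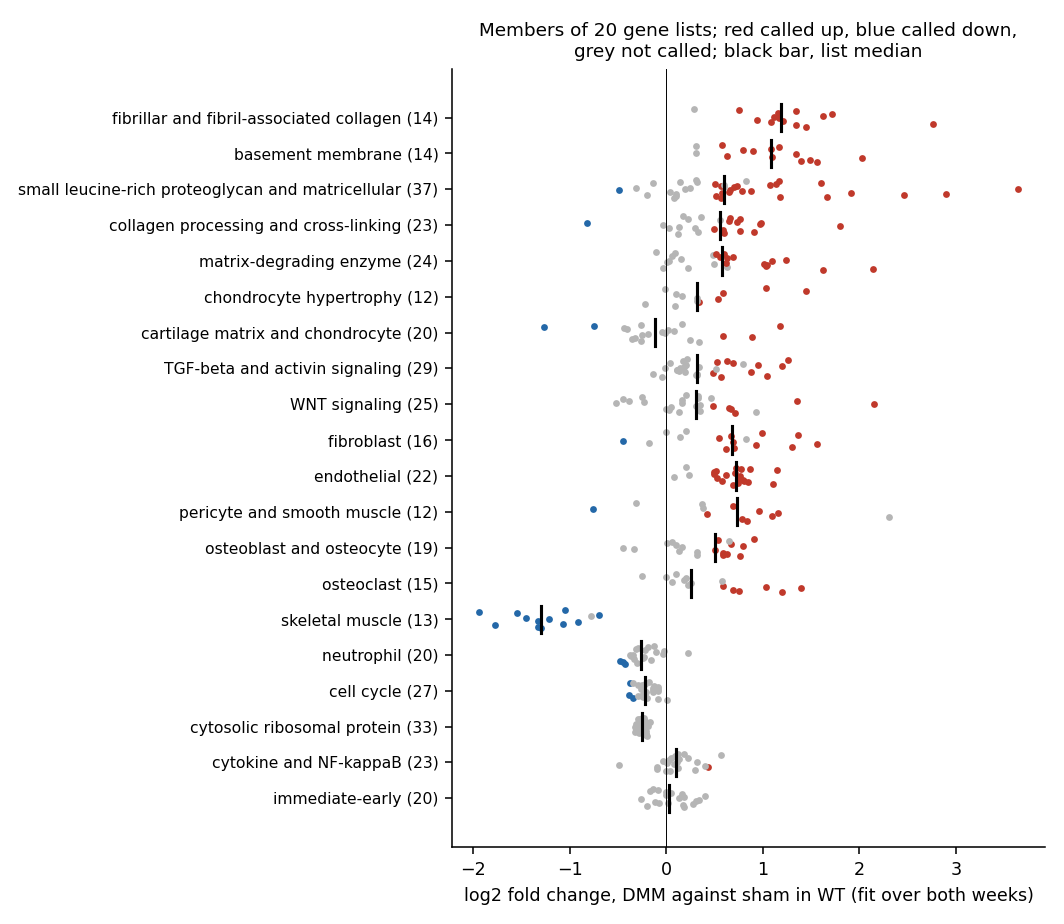
Log2 fold change of DMM against sham in WT (x axis) for the tested members of 20 gene lists, whose number stands in parentheses; red points rose, blue fell, grey did not pass, and the black bar is the list median. The collagen and basement membrane lists have medians of 1.19 and 1.09, the cartilage list -0.12, and the skeletal muscle list -1.30.

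Vessel genes followed. Of 22 endothelial genes 19 rose, none fell, and 21 were above their sham at both weeks (31.4% of all genes), with a median of 0.72. DESeq2 called 5 of them. With the length trend removed 17 rose, and 7 to 16 without 1 library, the fewest without the 4-week DMM. Cdh5, the cadherin of endothelial junctions, went from 4.89 to 14.1 and from 6.14 to 13.1 TPM (1.10 ± 0.12, adjusted p = 4.17e-10). Ptprb, the endothelial phosphatase VE-PTP, went from 0.92 to 2.94 and from 1.32 to 2.90 TPM, and Pecam1 from 14.2 to 30.0 and from 19.3 to 30.4 TPM. The summed level of the list was 0.0173% and 0.0229% of TPM in the shams and 0.0321% and 0.0347% after DMM. Pericyte and smooth muscle genes gave 7 up and 1 down of 12 (2 to 4 up without 1 library), with Rgs5, a pericyte regulator of G-protein signaling, at 7.85 to 24.2 and 8.92 to 17.4 TPM.

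Fibroblast genes gave 10 up and 1 down of 16, with 2 up without the 2-week DMM library. Dpt, the matrix protein dermatopontin, rose from 11.6 to 47.9 and from 11.0 to 30.2 TPM, and Prrx1, a mesenchymal transcription factor, from 3.0 to 7.42 and from 2.71 to 5.86 TPM. Osteoblast and osteocyte genes gave 9 up of 19 and none down (1 up without the 4-week DMM library). Bglap, which encodes osteocalcin, was at 1210 and 1120 TPM in the shams and at 2207 and 2348 TPM after DMM (0.76 ± 0.14, adjusted p = 1.11e-04), and Sp7, the transcription factor osterix, rose 1.55-fold, both not called without the 4-week DMM. As shares of TPM the osteoblast list summed to 0.356% and 0.295% in the shams and 0.521% and 0.540% after DMM. Among 15 osteoclast genes 6 rose, but none did with edgeR once either DMM library was left out. They included Acp5, the phosphatase TRAP (289 to 552 and 342 to 672 TPM), Ctsk, the collagen-cutting cathepsin K (193 to 368.5 and 201 to 366 TPM), and Ocstamp, which takes part in osteoclast fusion. The share of these vessel, bone and fibroblast genes in the change of the matrix genes was not tested.

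Oscar itself (chromosome 7, 3609813 to 3616157), a member of the osteoclast list, had 1.25 and 1.70 TPM in the shams and 3.53 and 4.21 TPM after DMM, on 48, 42, 118 and 94 counts. Both DMM libraries were above both shams (1.2 ± 0.23, adjusted p = 1.55e-04). It was not called in any of the 8-library fits that left out 1 WT library, and the Oscar-/- libraries were at 0. The collagen receptor list, which includes Oscar, gave 4 up and 1 down among 12 tested, with Ddr2, a receptor kinase that binds fibrillar collagen, rising from 3.19 to 7.30 and from 3.71 to 7.49 TPM. Without 1 library, 1 or 2 of the 12 rose.

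Growth factor lists moved in part. TGF-beta and activin signaling gave 10 up and none down of 29. WNT signaling gave 6 up of 25, and IGF and FGF signaling 6 up of 22. Over all genes tested 6.32% rose. With the length trend removed these 3 lists had 7, 4 and 4 genes up in edgeR. The medians were 0.31 in each of the 3, and without 1 library the counts fell to as few as 2, 1 and 0 with edgeR, where the 0 was without the 2-week DMM. The TGF-beta median was 0.19 with the length trend removed, and the IGF and FGF median 0.15 without the 4-week sham and 0.18 without the 4-week DMM. DESeq2 called 4, 1 and 1 of these genes. Tgfb3, a TGF-beta ligand, went from 2.51 to 5.65 and from 2.56 to 6.56 TPM. Ltbp4, which holds latent TGF-beta in the matrix, rose 1.84-fold, and Fstl1, a secreted follistatin-like protein, 1.93-fold. Dkk3, of the Dickkopf family, went from 1.83 to 5.80 and from 1.77 to 4.92 TPM, and Sfrp2, a secreted WNT-binding protein, from 0.21 to 1.35 and from 0.37 to 1.68 TPM. Igf1, the growth factor that sustains proteoglycan synthesis in cartilage, rose 1.82-fold. Tgfb3 and Ltbp4 were not called without the 4-week DMM, Igf1 not without the 2-week DMM, and Sfrp2 only without the 4-week sham.

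Few genes of the cytokine and immediate-early lists passed, and their counts lie near the 6.32% of all genes that rose. The complement list and the monocyte and macrophage list, given at the end, had 4 up each. One of 23 cytokine and NF-kappaB genes rose, Il6st, the shared receptor chain of the interleukin-6 family (7.57 to 15.2 and 13.4 to 18.1 TPM). It was not called with the length trend removed (adjusted p = 0.142), nor in 3 of the 4 fits without 1 library. None of the 20 immediate-early genes passed in edgeR or DESeq2, while 2 were under 0.05 before adjustment. Ptgs2, the inducible cyclooxygenase, went from 0.49 to 0.78 and from 1.07 to 1.85 TPM (adjusted p = 0.126), and Nos2 was too low to test (0.07 to 0.38 TPM). Tnfsf10, which encodes the death ligand TRAIL, rose from 0.72 to 1.75 and from 1.15 to 1.80 TPM (0.76 ± 0.19, adjusted p = 0.00491). It was no longer called with the length trend removed (adjusted p = 0.0703), nor in 3 of the 4 fits without 1 library. Tnfrsf11b, the decoy receptor osteoprotegerin, had a log2 ratio of -1.02 at 2 weeks and -0.01 at 4 weeks and fell over both (adjusted p = 0.00670, or 0.128 with the length trend removed), but in none of the fits without 1 library.

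Skeletal muscle genes, the list of a tissue that is no part of cartilage, had the lowest median of any list. Of 13 tested 12 fell and none rose, but the median was -2.21 at 2 weeks and 0.13 at 4 weeks. The 2-week sham library had their highest level, and without it 1 of the 13 fell, without the 4-week sham 13, without the 2-week DMM 1 and without the 4-week DMM none, in edgeR fits. The fits without 1 library started from all 8 libraries, where edgeR called 3 of the 13 down with none left out. Part of the drop from 12 thus came with the change of fit. With the length trend removed 2 fell, and DESeq2 called 2. Pvalb, a calcium buffer of fast muscle fibers, had 37.8 TPM in the 2-week sham, 5.79 after DMM, and 13.5 and 14.6 TPM at 4 weeks. Mb, the oxygen-binding protein myoglobin, was lower at both weeks (9.19 to 2.90 and 7.49 to 2.02 TPM, -1.94 ± 0.23, adjusted p = 5.39e-09), and so was Myh1, a fast myosin (0.82 to 0.29 and 1.03 to 0.33 TPM). The call of Mb was lost without the 4-week DMM, and that of Myh1 held only without the 4-week sham.

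Among the other large falls, Myoc, which encodes myocilin, went from 6.82 to 2.37 and from 5.68 to 3.4 TPM, and Exosc6, a subunit of the RNA exosome, from 4.09 to 2.01 and from 2.24 to 0.88 TPM. Syn3, which encodes a synapsin, had 278 counts in the 2-week sham and 26, 12 and 6 in the 2-week DMM and the 4-week sham and DMM, so that 1 library carried its fall (-3.18 ± 0.32). Gm20708, a predicted gene, had 134, 0, 65 and 47 counts in the same order. Each of these 4 calls was lost without the 2-week sham and without the 2-week DMM.

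Lists of neutrophil, platelet, cell cycle and ribosomal protein genes had medians below 0. Of 20 neutrophil genes 17 were below their sham at both weeks, against 33% of all genes, and 3 fell, among them Ctsg, the granule protease cathepsin G (206 to 184 and 267 to 200 TPM). Of 27 cell cycle genes 24 were below at both weeks and 3 fell, and of 14 platelet genes 11 and 5. Over all genes tested 1.39% fell. DESeq2 called 2 neutrophil and 0 platelet genes down, and edgeR on all 8 libraries 4 and 0. Of 33 ribosomal protein genes 30 were below at both weeks while none passed with edgeR or DESeq2, although 6 had an unadjusted p under 0.05. The medians of these lists were -0.27, -0.22, -0.40 and -0.25 on scaled counts. On log2(TPM + 1) they were -0.07, -0.02, -0.20 and -0.05. With the length trend removed 1 neutrophil gene, 1 platelet gene and none of the cell cycle genes fell with edgeR. Without the 4-week sham 9 neutrophil, 7 cell cycle, 7 platelet and 29 ribosomal genes fell, and without either DMM library none of the 4 lists had a fall in edgeR.

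Some genes passed the fold threshold at a single week. The difference between weeks was not tested, since the 4 WT libraries alone leave no residual degree of freedom for it. At 2 weeks only, 22 genes rose at least 2-fold (0.181%) and 75 fell (0.615%), and at 4 weeks only 30 rose (0.246%) and 9 fell (0.0739%). In all 22 genes up at 2 weeks only, the 2-week sham library was the lowest of the 4. In the 75 down it was the highest for 63, and the 2-week DMM library was the lowest for 59. In all 30 genes up at 4 weeks only, the 4-week sham was the lowest, and the 4-week DMM was the highest for 19. Lars2, mitochondrial leucyl-tRNA synthetase, shows the first pattern, with 66.0 TPM in the 2-week sham and 257, 478 and 525 TPM in the 2-week DMM, 4-week sham and 4-week DMM. The other genes that rose most at 2 weeks only and were called, Hist1h2bq, a histone gene, Zfp871, a zinc finger gene, and Gm38394, were likewise low in that sham, and none of these 4 was called without it. Tagln, the smooth muscle actin-binding protein SM22, rose at 4 weeks only, from 5.12 to 17.8 TPM, after 4.98 and 6.30 TPM at 2 weeks, and was not called in any fit without 1 library. Bmp4, a bone morphogenetic protein, rose at both weeks on TPM, from 1.6 to 2.76 and from 1.75 to 3.61, while these classes rest on scaled counts. Over both weeks Bmp4 did not pass (edgeR adjusted p = 0.0605). The mitochondrial gene mt-Co3 was lower after DMM at 4 weeks only (1147 to 476.5 TPM, after 285 to 493 TPM at 2 weeks).

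The Oscar-/- libraries share no library with the WT comparison. Of the 792 genes that rose in WT, 178 were above their sham at both weeks in Oscar-/- mice, against 33% of all genes, and 330 were below at both weeks, against 30.4%. The median log2 ratio of the 792 was 0.67 and 0.68 in WT at 2 and 4 weeks and -0.02 and -0.10 in Oscar-/- mice. The interaction of genotype and surgery, fitted on all 8 libraries and so sharing the WT libraries, was called lower in Oscar-/- for 366 of the 792 (3.83% of all genes) and higher for 62 of the 174 that fell (1.41% of all genes). Picking genes by their WT response favors a difference in this direction. With the length trend removed the interaction was called lower for 313 genes in all instead of 480. It was called lower for 14 genes without the 4-week DMM library of WT, 71 without the 2-week DMM and 1013 without the 4-week sham, and higher for 1, 2 and 964 genes instead of 177. Spearman's rho between gene length and the log2 ratio was -0.16 and -0.28 in Oscar-/- mice, the opposite sign to WT.

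By group, the interaction was called lower in Oscar-/- for 10 of 14 fibrillar and fibril-associated collagens, 9 of 14 basement membrane genes, 9 of 22 endothelial genes, 8 of 24 proteases and 7 of 19 osteoblast genes. Over all genes tested it was called lower for 3.83%. These groups are shown because they rose in WT, which favors a difference in this direction. The sham levels differed between genotypes. The collagen list summed to 486 and 515.6 TPM in the WT shams and to 1008 and 807.6 TPM in the Oscar-/- shams, and after DMM to 1714 and 1446 TPM against 1344 and 670.9 TPM. The basement membrane list summed to 1258 and 834 TPM in the WT shams and to 2449 and 1176 TPM in the Oscar-/- shams. The part of the sham levels in the interaction was not tested. Col3a1 still had log2 ratios of 1.89 and 0.69 in Oscar-/- mice, and Tnn 4.04 and 0.83, where the interaction of Tnn was not called (adjusted p = 0.507). Mmp2 had 0.63 and 0.22 there, with an interaction of -1.2 (adjusted p = 0.00438). Cytl1 had -2.13 and -0.71 in Oscar-/- mice and -1.77 and -0.75 in WT, and its interaction was not called (-0.09, adjusted p = 0.916).

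**Figure D5:**
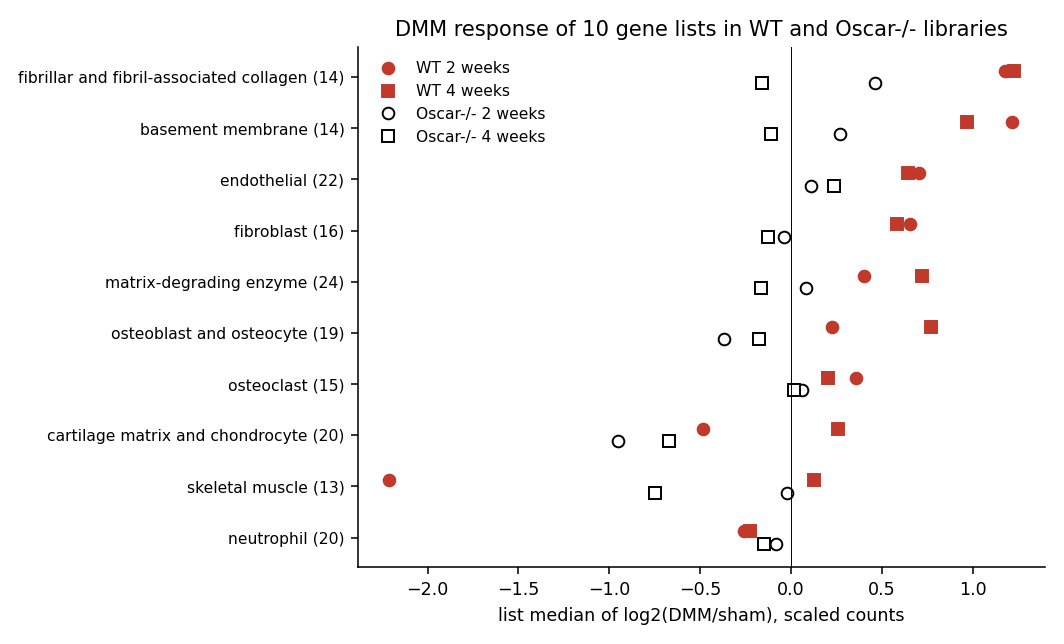
Median log2(DMM/sham) of scaled counts (x axis) over the tested members of 10 gene lists, number in parentheses, in WT (red) and Oscar-/- (open) at 2 weeks (circles) and 4 weeks (squares). The collagen list lies at 1.18 and 1.23 in WT and at 0.46 and -0.16 in Oscar-/-, and the cartilage list lies below 0 at both weeks in Oscar-/- (-0.95 and -0.67).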

How the data were processed

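Each stranded mRNA library pooled 10 articular cartilages, while the study's RNA methods name knee joint tissues as the source of the RNA. Per the study's methods, the authors removed adapters with BBDuk before alignment to GRCm38. Tools in the submitters' processing notes are STAR 2.6.0a for alignment, RSEM 1.2.17 for quantification and FastQC 0.11.8 for read quality. A human build is given there, but every file carries mouse gene identifiers. Expected counts deposited by the authors are RSEM estimates per gene and were rounded. The TPM values deposited by the authors are per length and sum to the same total in each library. Of 52636 identifiers, 52403 matched GENCODE M21 on GRCm38 and gave symbols, types and coordinates. No library was dropped or imputed.

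The 12538 genes tested were protein-coding with TPM above 1 in at least 1 of the 8 libraries. In WT, edgeR 4.0.16 quasi-likelihood tests with TMM scaling fitted week and surgery to 4 libraries, with Benjamini-Hochberg adjustment over all genes. Week entered as the block that pairs DMM with sham, since the labels give each library its week and no shared animal. Prior degrees of freedom were 48.6. The paper states that mice matched for age and sex were allocated at random to groups. Each group was 1 pooled library, so p-values do not measure the spread between animals. Log2 ratios within a week used library-scaled log counts with a prior count of 2. A 2-fold change at both weeks meant a log2 ratio of at least 1 in each, with 20 counts or more in the larger library, and a change at 1 week only meant less than 0.3 in that direction at the other. The median counting standard error of a log2 ratio was 0.10 at 2 weeks and 0.11 at 4 weeks and covers counting error only. The fit was also run on counts simulated from its own means and dispersions. That run does not check the calls on these data.

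The 45 gene lists and the members named were chosen with earlier results of these data known. Named were the genes the study names for cartilage RNA, the 12 largest rises and 12 largest falls among called genes with a mean of 50 counts or more, up to 4 members of each list with the lowest p (or the 2 highest in TPM where none was called), and the 6 largest changes each way at 1 week only, also with a mean of 50 counts or more. Not all are printed. Alternatives were DESeq2 1.42.0, limma 3.58.1 on log2(TPM + 1) and log2(TPM + 0.1), RLE scaling, TMM without hemoglobin genes, no filter, genes of all types, no week term, all 8 libraries, and each WT library left out. Limma on scaled log counts and the removal of a length trend (lowess of each library on log2 gene length, as an offset) were added after seeing the data. Software was Python 3.11.15 (numpy 2.4.6, pandas 2.3.3, matplotlib 3.10.9) and R 4.3.3.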

Additional observations from a re-analysis of the deposited data

Results flagged for a closer look

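A difference between genotypes in the response to DMM was the only kind of flag among these results, and it rests on edgeR's interaction term over all 8 libraries, 1 pooled library per condition. Of the genes that rose in WT, 366 had a response called lower in Oscar-/- mice, and of those that fell, 62 had one called higher. Over all genes tested, 3.83% were called lower and 1.41% higher. These genes were picked by their WT response, and the interaction shares the WT libraries, which favors a difference in this direction. Among the 12 largest rises the log2 difference (Oscar-/- minus WT) passed for Col3a1 (-1.40), Aspn (-1.44), Col18a1 (-1.15), Fndc1 (-1.50), Aldh1l2 (-2.21), Postn (-1.07), Cthrc1 (-1.33) and C1qtnf5 (-1.60). Among the 12 largest falls it passed for Mb (1.82). Groups of 1 library could not be searched for a sample far from the others.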

How the results depend on the processing

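Every condition was 1 pooled library, so that counts of calls moved with the fit. The 792 genes up became 144 with DESeq2, 525 and 492 with limma on log2(TPM + 1) and log2(TPM + 0.1), and 499 with the length trend removed. The 174 genes down became 97 with RLE scaling, 100 without the filter, 5 with DESeq2, 48 and 51 with the 2 limma fits on TPM, 92 with limma on scaled log counts, 63 with all 8 libraries and 85 with the length trend removed. Without the replicate block (week), edgeR called 0 up and 0 down (997 genes at an unadjusted p under 0.05). No same-numbered libraries beyond the week pairs exist, so the pairing could not be checked further. Leaving out 1 library gave 121 to 925 genes up and 3 to 803 down. The interaction called lower in Oscar-/- gave 283 with DESeq2, 313 with the length trend removed and 14 to 1013 without 1 library, and that called higher 1 to 964. The cause of these moves was not tested.

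The 2-fold classes moved as follows. On TPM ratios, 150 genes rose at both weeks, 156 rose and 38 fell at 2 weeks only, and 16 fell at 4 weeks only. A log2 threshold of 0.58 gave 375 up and 22 down at both weeks. With 50 or more counts, 2 fell at both weeks, 46 fell at 2 weeks only, and 12 rose and 1 fell at 4 weeks only. Against the sham of the other week, 61 rose and 14 fell at both weeks, 142 rose and 47 fell at 2 weeks only, and 81 rose and 78 fell at 4 weeks only.

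Some single genes changed sign. Adamts5 had log2 changes of -0.0089 with RLE scaling, -0.011 without the filter, -0.011 with DESeq2, -0.0017 with limma on scaled log counts and -0.25 with the length trend removed, and -0.25 to 0.21 without 1 library. Btg2 had 0.071 and 0.072 with limma on the TPM scales, and Rps27 had 0.0026 with the length trend removed. Without 1 library the ranges were -0.56 to 1.21 for Col2a1, -0.75 to 0.20 for Acan, -3.03 to 0.022 for Pvalb, -2.69 to 0.010 for Myl1, -2.67 to 0.084 for Ckm, -3.12 to 0.92 for Myh4, -2.66 to 0.033 for Tnnt3, -0.57 to 0.10 for Rps27, -0.069 to 0.074 for Junb, -0.15 to 1.30 for mt-Co2, -0.0099 to 1.27 for Dbndd2, -0.23 to 1.12 for Il4i1 and -1.42 to 0.51 for mt-Co3.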

Other observations

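Genes that do not code for protein were tested in a fit of all gene types, and those named here were chosen after their values were seen. Of 2274 such genes 23 rose and 19 fell, and 4 of 11 immunoglobulin constant genes rose. Ighg2c, a heavy chain constant gene of antibodies, had 4.27 TPM in the 2-week sham and 17.3 TPM after DMM, and 26.9 and 40.0 TPM at 4 weeks, so that the 4-week sham lay above the 2-week DMM library. Igkv15-103, a kappa variable gene, was lower in both DMM libraries (145 to 35.8 and 113 to 31.1 TPM, log2 change -2.15). Variable genes share much sequence, and the division of reads among them is uncertain.

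Some members of immune lists rose as well. Of 18 B cell genes 3 rose, of 19 monocyte and macrophage genes 4 and of 17 complement genes 4, where 6.32% of all genes rose. Of the B cell genes 14 were above their sham at both weeks, against 31.4% of all genes, and their median log2 change was 0.21. Without the 2-week sham or either DMM library edgeR called none of the B cell or monocyte genes, and without any 1 library it called at most 1 complement gene. On all 8 libraries, with none left out, edgeR called 3 B cell genes, 2 complement genes and 0 monocyte genes. DESeq2 called 1 B cell gene, 1 complement gene and no monocyte gene. With RLE scaling edgeR called none of the 19 monocyte genes, of which 7 had an unadjusted p under 0.05 and a rise with TMM.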
